A study of Homo sapiens with 8 samples.

Results

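The short annotated introns described here are reference introns of 40 to 89 nt that were read in HEK293 cells, a line derived from human embryonic kidney. The groups were cells treated with 25 nM LMI070, a small molecule that changes splicing, and cells treated with DMSO, its solvent. Each group had 4 libraries, LMI070 replicates 13 to 16 and DMSO replicates 9 to 12, made from total RNA depleted of ribosomal RNA with a stranded kit. The sequencing lanes, 7 and 8, were balanced, with 2 LMI070 and 2 DMSO libraries in each, and the duration of treatment is not given in the sources used here. Nothing in the labels says that libraries came from separate cultures, so p-values measure the spread between these libraries, which may be technical.

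A splice junction was taken where the aligner marked it as annotated, with a GT-AG or GC-AG motif, a length of 40 to 89 nt and at least 20 uniquely mapped reads over the 8 libraries. Of 654181 junctions, 5861 met the first conditions, 1507 of these were below 20 reads, and 4354 remained. These 4354 made up 2.73% of the 159212 annotated introns with at least 20 reads. The introns were thus selected on length and total reads, which are given as a description only. At the length limit, 310 introns of 89 nt were inside and 313 of 90 nt were outside, and at the read limit 103 introns had 20 to 24 reads and 139 others had 15 to 19.

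An intron is removed from the transcript by the spliceosome, which recognises the 5′ splice site through U1 snRNP and the branch site and 3′ splice site through SF1, U2AF and U2 snRNP. Short introns are thought to be recognised as a unit across the intron, whereas introns that lie between widely spaced exons are recognised across the exon. Runs of G within short introns are known binding sites of hnRNP H and F proteins, and the human factors RBM17 and SAP30BP take over from U2AF at some short introns with a weak pyrimidine tract. LMI070, also known as branaplam, is known to stabilise U1 snRNP on the 5′ splice site of exons that end in GA.

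The sequences below show the range of the introns the results turn on, from short and GC-AG introns to deeply read ones and the RPS2 (83 nt) and RAB3IP introns that are compared between LMI070 and DMSO. The letters come from the GENCODE 29 transcripts (GRCh38) in which the intron lies within an exon. The first and last 2 bases of each intron, its splice site dinucleotides, are in capitals.
HNRNPH1, 56 nt, chr5:179617933-179617988, minus strand: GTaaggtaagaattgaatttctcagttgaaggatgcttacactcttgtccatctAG
MAGED2, 54 nt, chrX:54809818-54809871, plus strand: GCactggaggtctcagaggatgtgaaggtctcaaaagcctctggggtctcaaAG
DUS1L, 81 nt, chr17:82060784-82060864, minus strand: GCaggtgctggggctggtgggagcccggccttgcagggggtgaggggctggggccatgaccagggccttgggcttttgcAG
EEF1A1, 89 nt, chr6:73518265-73518353, minus strand: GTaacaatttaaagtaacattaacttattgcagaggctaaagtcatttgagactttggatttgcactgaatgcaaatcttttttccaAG
RPS18, 81 nt, chr6:33275884-33275964, plus strand: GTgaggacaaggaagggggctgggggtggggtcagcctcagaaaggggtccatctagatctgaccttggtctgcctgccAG
RPL36, 78 nt, chr19:5691454-5691531, plus strand: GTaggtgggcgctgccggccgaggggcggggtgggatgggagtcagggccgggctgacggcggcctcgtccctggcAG
RPS2, 83 nt, chr16:1964366-1964448, minus strand: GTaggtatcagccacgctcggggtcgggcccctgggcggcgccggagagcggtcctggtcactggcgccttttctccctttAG
RAB3IP, 86 nt, chr12:69812878-69812963, plus strand: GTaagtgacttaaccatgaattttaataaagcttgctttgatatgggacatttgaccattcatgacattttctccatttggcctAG
The set spans A and T rich introns, such as EEF1A1 with 31.5% G and C and HNRNPH1 with 37.5%, and G rich ones, such as RPL36 with 78.2% and 7 runs of GGG. MAGED2 and DUS1L begin with GC in place of GT.

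Lengths ran from 45 to 89 nt with a median of 83 nt and quartiles of 78 and 86 nt, so most of the set lay close to its upper limit. Between 80 and 89 nt there were 3032 introns, between 70 and 79 nt 1227, and below 70 nt only 95, of which 15 were below 60 nt. Reads over the 8 libraries ranged from 20 to 341973 per intron with a median of 580 and quartiles of 158 and 1540. A read was seen in each of the 8 libraries for 4225 introns. Multiply mapped reads were 1.40% of all reads of the short introns and 1.87% of those of annotated introns of 90 nt or more.

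**Figure D1:**
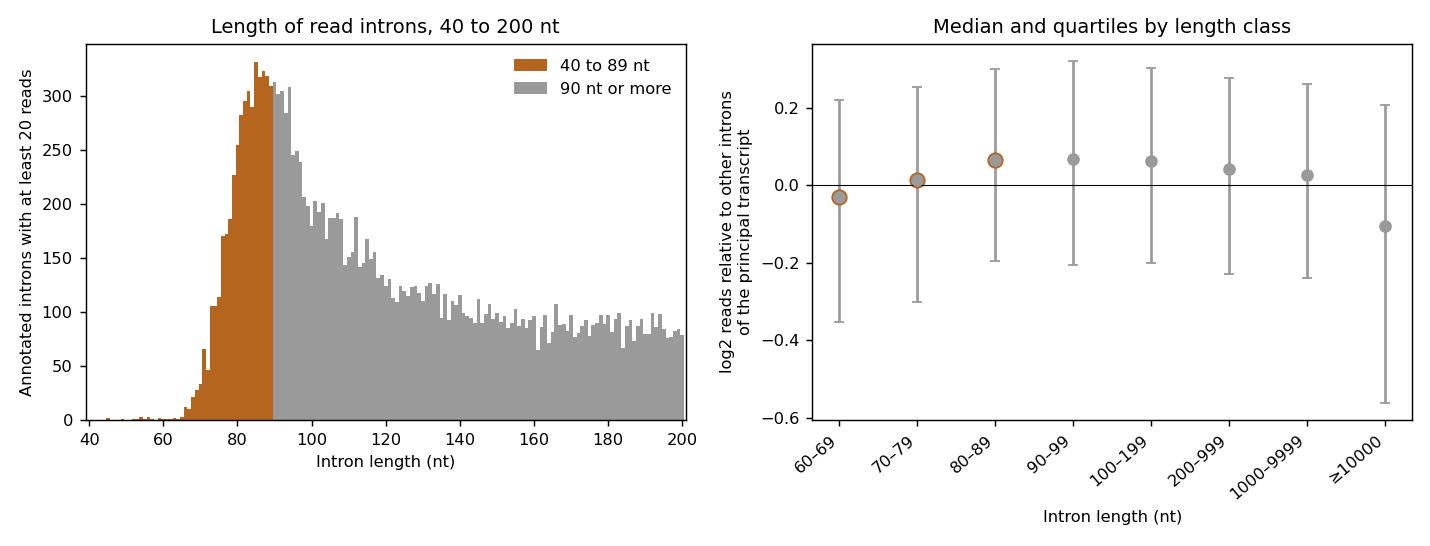
Left, number of annotated introns with at least 20 reads at each length from 40 to 200 nt, with the short introns in brown. Right, reads relative to the other introns of the gene's principal transcript (log2) by length class on the x axis, as the median (point) and quartiles (bars); medians are -0.03 at 60 to 69 nt, 0.07 at 80 to 89 nt and -0.10 at 10000 nt or more.

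Most short introns lay in the coding part of the transcript, and few were the first intron. By position in the reference transcript, 94.0% lay between coding exon parts, against 84.9% of annotated introns of 90 nt or more with the same read minimum. In the 5′ UTR the shares were 1.40% of short and 7.28% of longer introns. Among introns of the principal transcript, the reference isoform of each gene, 2.89% of short and 9.36% of longer ones were the first intron, while 8.73% and 8.82% were the last. Principal transcripts contained 92.4% of the short introns and 82.0% of the longer ones. The 50 exon bases on each side had a median G and C content of 58% beside short introns, 55% beside introns of 90 to 199 nt and 49% beside all of 90 nt or more.

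Chromosomes 19 and 16 had the highest share of short introns, 6.94% and 5.90% of their annotated introns with 20 reads or more, and chromosome 18 had 0.969%. A single host gene could be assigned to 4182 introns, in 2323 genes, and 172 lay in overlapping genes. Of these genes, 1521 had 1 short intron, 802 had at least 2, 139 at least 5 and 20 at least 10. CPSF1, which encodes the largest subunit of the cleavage and polyadenylation factor, held 24, which took 67.6% of its junction reads. The type VII collagen gene COL7A1 held 22 among 88 read introns, the mechanosensitive channel gene PIEZO1 17, the basement membrane genes LAMA5 and LAMB2 17 and 15, and the fatty acid synthase gene FASN 13. BOP1, a ribosome biogenesis gene, had 10 of its 15 read introns in the set, with 68.8% of its junction reads.

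Short introns were read about as deeply as the other introns of their genes. Relative reads were log2 of an intron's reads plus 1 over the median of the other annotated introns of the gene plus 1, for genes with at least 3 others of 20 reads or more. The median was 0.07 over 4088 short introns and -0.01 over 37801 introns of 90 nt or more in the same genes. Within 1 principal transcript, a reference set that leaves out rare isoforms, the medians were 0.05 over 3957 short introns and 0.01 over 32051 longer ones. On that scale 209 short introns (5.28%) lay more than 1 log2 unit below their neighbours and 128 (3.23%) more than 1 above, against 5.54% and 1.68% of the longer ones. The 3957 include introns in overlapping genes, which these longer ones leave out. In all genes the shares were 4.58% and 3.76% for introns of 90 to 199 nt, and 6.19% and 3.21% for all of 90 nt or more. By length the median within the principal transcript was -0.03 at 60 to 69 nt, 0.01 at 70 to 79 nt, 0.07 at 80 to 89 nt, 0.07 at 90 to 99 nt and -0.10 at 10000 nt or more. These are descriptions: introns of a gene share its reads and are not replicates.

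The 8 deepest short introns, at most 1 per gene, were in EEF1A1, RPS18, RPS2, EIF4A1, ACTG1, RPL6, RPL36 and HNRNPA1. EEF1A1, the translation elongation factor gene, had 341973 reads over its 89-nt intron, the sixth of 7, which took 15.3 to 18.3% of the gene's junction reads in LMI070 libraries and 15.3 to 16.9% in DMSO libraries. RPS18 and RPS2, which encode proteins of the small ribosomal subunit, had 103244 and 102288 reads over introns of 81 and 79 nt. The γ-actin gene ACTG1 had 69739 reads (89 nt), RPL6 and RPL36 of the large ribosomal subunit 65810 (81 nt) and 59247 (78 nt), and the RNA-binding protein gene HNRNPA1 58404 (86 nt). The 81-nt intron of EIF4A1, the gene of a helicase of translation initiation, had 71278 reads and also lies in overlapping genes. Ribosomal protein genes have near-identical pseudogenes, so their counts are less certain: RPL6 had 5125 further reads mapped to several places.

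Introns under 60 nt lay almost entirely outside principal transcripts. Of the 15, 6 were GC-AG, 10 lay within an exon of another transcript, and 1 lay in a principal transcript. Among the 4339 of 60 to 89 nt, 40 were GC-AG. The median relative reads of the 10 with enough neighbours were -3.89, and the 15 had a median of 62 reads. The exception was the 56-nt intron of HNRNPH1, the gene of a protein that binds runs of G: it had 23276 reads, and relative reads of 0.18 within the principal transcript. It was read 4195, 3185, 2431 and 2504 times in LMI070 libraries 13 to 16, and 2484, 3068, 2861 and 2548 times in DMSO libraries 9 to 12. The neighbouring 84-nt intron of the same gene had 28032 reads. The other introns under 60 nt with at least 100 reads were in CIRBP (45 nt, 765 reads), B2M (52 nt, 250), MAGED2 (54 nt, 268) and GNB2 (56 nt, 195), with relative reads of 1.12, -4.68, -3.61 and -4.18. CIRBP, which encodes a cold-inducible RNA-binding protein, used its 45-nt intron for 16.1% of the reads at its splice sites, and the annotated junction of 1517 nt that shares its 3′ splice site had 3937 reads.

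Some of these junctions join repeated letters. For the introns with sequence, the run of bases that is identical on both sides of the splice, which leaves the exact junction undefined, had a median of 2 bases. A run of 8 or more was found in 16 of 1224 short introns (1.31%), 23 of 2938 introns of 90 to 199 nt (0.783%) and 23 of 5050 introns of 200 to 999 nt (0.455%). Of the 16, 9 lay outside the principal transcript, and these were 6.08% of the 148 short introns with sequence that did so, against 0.651% of the 1076 within it. The 54-nt junction of MAGED2 shown above had 9 repeated bases, a 63-nt junction in RPL8 had 9, and a 56-nt junction in DECR2 had 55. Median relative reads were -1.50 for the 15 of these 16 with enough neighbours and 0.01 for all short introns with sequence. Within the principal transcript the medians were 0.31 with such a run and 0.06 for all, and outside it -2.99 and -3.11. The pooled difference was thus not seen within either class.

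Short introns outside the principal transcript had lower relative reads than those within it. The 286 short introns outside the principal transcript with enough neighbours had median relative reads of -2.59, against 0.10 for 3802 within it. The 6 lowest, at most 1 per gene, were in RPS16, RPLP0, RPL4, TPT1, HSP90B1 and SSR4, and in the first 5 another annotated junction at the same splice site took nearly all reads. In RPS16 a 75-nt junction had 27 reads while the 103-nt junction at the same 3′ splice site had 30301. In RPLP0 an 83-nt junction had 20 reads and the 114-nt junction at the same 5′ splice site 56386. RPL4, TPT1 and HSP90B1 had relative reads of -9.42, -8.76 and -8.69 with shares of 0.18%, 0.16% and 0.27% among competing junctions. The 88-nt first intron of SSR4, which encodes a subunit of the translocon-associated protein complex, differed from these: it belongs to the principal transcript, had 20 reads and a share of 24.4%, and its leading competitor had 28 reads, while the other introns of the gene had a median of 5976. The highest values depended on which introns were set against the short one. RPS2 (79 nt) and HMGN1 (82 nt) had 8.73 and 5.95 against all annotated introns of the gene, most of which belong to rare isoforms, and 1.32 and 0.13 within the principal transcript.

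Most short introns had little competition at their splice sites. A competing junction, one that shares the 5′ or 3′ splice site, was read for 3230 short introns (74.2%), against 83.8% of introns of 90 nt or more. The share of the short intron was below 90% in 462 (10.6%) and below 50% in 209 (4.80%), against 27.7% and 16.2% of longer introns. Of the 462, 254 were among the 4024 short introns in the principal transcript and 208 among the 330 outside it. Fewer of the longer introns lay in principal transcripts, and short and longer introns were not compared within these. Of introns of 90 to 199 nt, 74.6% had a competing junction, about as many as of the short ones. In that class 16.1% had a share below 90% and 8.71% below 50%. The leading competitor shared the 5′ splice site in 1897 and the 3′ splice site in 1333, and it was annotated in 846 of the 3230 but in 203 of the 209 with a share below 50%. The leading competitor was 3 nt or less away from the unshared splice site in 24 of those 209. ESRP2, a splicing regulator gene, shows such a pair: its 73-nt intron had 546 reads and the 76-nt form at the same 5′ splice site 31. In EML3 the 80-nt and 77-nt forms of its second intron had 142 and 115 reads.

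Sequence could be read for the 1224 short introns that lie inside an exon of another transcript, 879 of them in retained-intron transcripts and 218 in protein-coding ones, so these are not a random sample. Their median G and C content was 63.1%, against 59.0% for 2938 introns of 90 to 199 nt and 53.8% for 5050 of 200 to 999 nt chosen the same way. The motif GGG, searched on the transcript strand without overlaps, was found in 77.9% of short introns, 85.5% of those of 90 to 199 nt and 96.6% of those of 200 to 999 nt. Per 100 nt the median was 2.70, 2.63 and 2.02 runs. The 20 bases before the final AG had a median of 75% pyrimidines in each of the 3 classes. Of the GT introns, 37.6% of the short ones, 33.8% of those of 90 to 199 nt and 29.2% of those of 200 to 999 nt began with GTGAG, and 16.2%, 15.4% and 19.8% with GTAAG. The short introns with sequence all ended in AG, with 1205 beginning with GT and 19 with GC.

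Many short introns held no stop codon in the frame of the exon before them. With the reading frame of the upstream exon, an in-frame stop was found in 654 of 1099 short introns (59.5%), 74.1% of introns of 90 to 199 nt and 95.5% of those of 200 to 999 nt. Introns whose length is a multiple of 3 and that hold no in-frame stop were 112 (10.2%), 7.95% and 1.79%. Longer introns hold more codons, so both sets of shares depend on length, and they were not adjusted for it. Among the deepest of the 112 were introns of RPL9 (84 nt, 36615 reads) and the creatine kinase gene CKB (72 nt, 12532 reads). An exon of a protein-coding transcript held 39.3% of the 112 and 11.2% of the 987 other coding short introns with sequence. A protein-coding transcript needs an open reading frame, so this difference may follow in part from how the 112 were chosen. Among those with enough neighbours, 19 of 104 (18.3%) and 78 of 919 others (8.49%) lay more than 1 log2 unit below the other introns of the gene. Principal transcripts held 99 of the 112 and 953 of the 987 others. Within the principal transcript the median relative reads were close, -0.03 over 96 introns and -0.02 over 933 others. Among coding introns of principal transcripts, with or without sequence, 31.7% of lengths from 66 to 87 nt were multiples of 3. There were 1168 such introns at those lengths and a mean of 1260 at the lengths 1 nt away. From 93 to 198 nt the corresponding numbers were 33.2%, 3716 and 3734.

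The libraries held 20369466 to 36131054 uniquely mapped junction reads in LMI070 and 21975349 to 26716014 in DMSO. LMI070 replicate 16 and DMSO replicate 12, both in lane 7, lay apart. The root mean square log2 difference of their reads per gene to the other 7 libraries averaged 0.153 and 0.155. LMI070 replicate 13, also in lane 7, was close to them with 0.143, and the rest had 0.103 to 0.116. LMI070 replicate 16 and DMSO replicate 12 were also the farthest for the short introns relative to their genes, with 0.206 and 0.185. The other 6 had 0.160 to 0.176, with LMI070 replicate 13 the lowest. Of the HEK293 markers looked up, 6 of 7 had at least 100 reads and 1 had none, with summed levels of 727 to 752 CPM (counts scaled to the total of the library) in LMI070 and 723 to 758 in DMSO. Blood, keratinising and hepatocyte lists summed to at most 1.31 in LMI070 and 0.878 in DMSO, and the fibroblast list to 23.1 to 31.2 in LMI070 and 20.1 to 24.8 in DMSO.

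The first question was whether LMI070 changed the overall use of short introns. Their share of annotated junction reads was 4.14% ± 0.0347 in LMI070 and 4.11% ± 0.0892 in DMSO (SD, n = 4 each). In lane 7 it was 4.18% and 4.15% in LMI070 and 4.22% and 4.00% in DMSO, and in lane 8 4.15% and 4.10% in LMI070 and 4.13% and 4.10% in DMSO. The groups overlapped in both lanes. The median relative reads per library were 0.08 ± 0.0070 in LMI070 and 0.08 ± 0.0068 in DMSO (SD, n = 4 each). In lane 7 the groups overlapped. In lane 8 they did not, with 0.0814 and 0.0817 in LMI070 and 0.0740 and 0.0799 in DMSO. The median share among competing junctions was 99.6% ± 0.182 in LMI070 and 99.7% ± 0.119 in DMSO. Shares below 90% were seen in 479 to 500 short introns per library in LMI070 and 468 to 483 in DMSO, a count not adjusted for depth. In lane 7 the counts were 486 and 485 in LMI070 and 474 and 468 in DMSO, without overlap. In lane 8 they were 500 and 479 in LMI070 and 481 and 483 in DMSO. This difference was not tested.

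**Figure D2:**
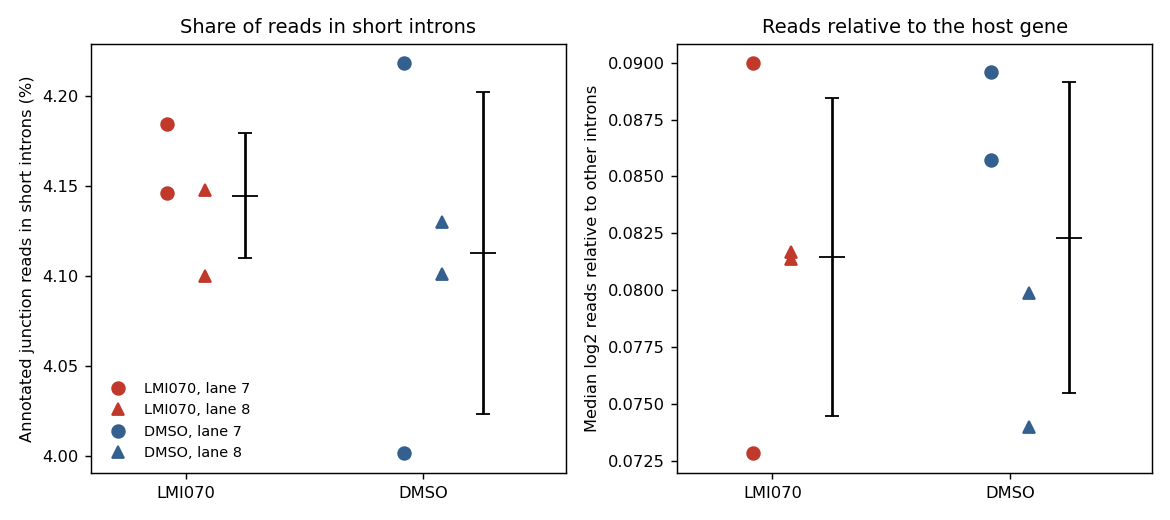
Left, percent of annotated junction reads in short introns in each library; right, median log2 reads of short introns relative to the other introns of their genes. Circles are lane 7 and triangles lane 8, red LMI070 and blue DMSO, and black bars show mean ± SD (n = 4); the vertical axes do not start at 0, and the groups overlap in both panels.

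Intron by intron, 1 short intron was called relative to its gene under LMI070, as lower. The call was lost in 10 of 16 alternative fits. The reads of each junction were compared with those of all other annotated junctions of its host gene, paired within libraries and with lane in the model, by edgeR's quasi-likelihood test with Benjamini-Hochberg adjustment over 151541 annotated junctions. Of 4122 short introns tested, 0 were called higher and 1 lower at an adjusted p under 0.05. Over all annotated junctions 0.0277% were called higher and 0.00924% lower, so counts of 0 and 1 are near the background. At an unadjusted p under 0.05 there were 202 short introns (4.90%), 89 higher and 113 lower, against 5.38% of all junctions, and DESeq2 called 0, with 29 at an unadjusted p under 0.05. The median log2 change was -0.0021 and 90% of short introns lay between -0.38 and 0.35. The median standard error was 0.133 over all, 0.45 for 738 introns with 20 to 99 reads and 0.08 for 1495 with at least 1000. Small changes in the shallow ones thus could not be seen at this depth.

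The called intron was the 77-nt second intron of RPL8, which encodes a protein of the large ribosomal subunit (chr8:144791915-144791991, minus strand). It held 9.56%, 11.6%, 11.2% and 7.19% of the gene's annotated junction reads in LMI070 replicates 13, 14, 15 and 16, against 12.7%, 12.1%, 10.7% and 10.3% in DMSO replicates 9, 10, 11 and 12. Over both lanes the groups overlapped, and LMI070 replicate 16 was the lowest. Within lane 7 the shares were 9.56% and 7.19% in LMI070 and 10.7% and 10.3% in DMSO, and within lane 8 11.6% and 11.2% in LMI070 and 12.7% and 12.1% in DMSO, so the groups did not overlap in either lane. The log2 change was -0.24 (SE 0.050, adjusted p = 0.029 by edgeR), -0.36 in lane 7 and -0.13 in lane 8, and neither lane alone gave a call. Without LMI070 replicate 16 it was -0.14 with an adjusted p of 0.44 by edgeR, and with that library and DMSO replicate 12 both left out -0.15 with 0.22. The call was also lost without LMI070 replicate 15 or DMSO replicates 9, 11 or 12, where the log2 change was -0.25, -0.25, -0.21 and -0.23, and with DESeq2, where it was -0.25. The next smallest p belonged to the 83-nt second intron of RPS2 shown above, with 3.94%, 4.84%, 4.27% and 3.02% in LMI070 replicates 13 to 16, against 5.27%, 4.67%, 4.07% and 4.69% in DMSO replicates 9 to 12. Its log2 change of -0.23 (SE 0.052, adjusted p = 0.10 by edgeR) did not pass, and 6206 further reads of this intron mapped to several places. By edgeR it passed without LMI070 replicate 13 (adjusted p = 0.0027), LMI070 replicate 14 (0.019) or DMSO replicate 10 (0.023), with log2 changes of -0.28, -0.29 and -0.29. Without LMI070 replicate 16 the log2 change was -0.14 (adjusted p = 0.66 by edgeR), without DMSO replicate 12 -0.17 (0.86) and without both -0.10 (0.83). The exon bases beside these 2 introns were 67% and 65% G and C. Across the deep short introns, those with at least 65% G and C beside them were read lower relative to those under 50% in LMI070 replicates 13 and 16 (log2 difference of -0.01 and -0.02) and in DMSO replicate 12 (-0.06), and higher in the other 5 libraries (0.01 to 0.03); the part of this in either result was not tested.

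**Figure D3:**
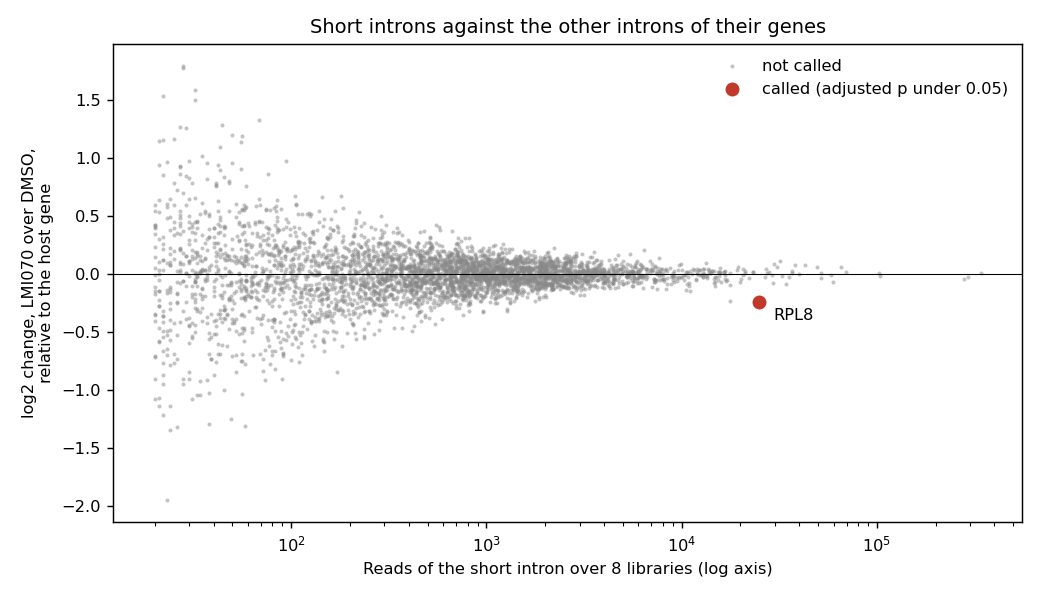
Log2 change of each of the 4122 short introns relative to its host gene (LMI070 over DMSO, y axis) by its reads over the 8 libraries (x axis, log scale). The red point is the RPL8 intron at -0.24, and the spread narrows with depth around a median of -0.0021.

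Neither lane alone called a short intron, with 190 in lane 7 and 170 in lane 8 at an unadjusted p under 0.05 by edgeR. The interaction of treatment with lane also called 0 of 4122, with 173 at an unadjusted p under 0.05. Among 1495 short introns with at least 1000 reads, the log2 changes of the 2 lanes had the same sign in 52.2% (r = 0.06 across introns, which are not independent). Exons that end in GA, the sites known for LMI070, preceded 58 short introns (1.33%) and 1.58% of longer ones. None of the 58 was called by edgeR, 4 had an unadjusted p under 0.05, and their median log2 change was 0.00. Over all annotated junctions, 19 of the 2393 with such an exon were called.

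Among junctions that compete for a splice site, 1 short intron was called, also lower. The call was lost in 7 of 15 alternative fits. The share of each junction among all junctions using either of its splice sites was tested in the same way over 129500 junctions, and a junction was called where the adjusted p was under 0.05 and its mean share differed by 10 percentage points or more. Of 2836 short introns tested, edgeR called 0 higher and 1 lower, against 0.0394% higher and 0.027% lower over all junctions, again near the background. At an unadjusted p under 0.05 there were 78 (2.75%, against 3.09% of all), and DESeq2 called 0, with 30 at an unadjusted p under 0.05. The interaction with lane called 0, with 50 at an unadjusted p under 0.05 by edgeR. The called intron was the 86-nt intron of RAB3IP shown above, the gene of a Rab exchange factor, which also lies in the overlapping gene AC025263.2. Its share was 82.6%, 87.2%, 81.8% and 78.4% in LMI070 replicates 13 to 16, against 94.9%, 96.1%, 98.4% and 89.1% in DMSO replicates 9 to 12, and the groups did not overlap. The share averaged 82.5% ± 3.62 in LMI070 and 94.6% ± 3.96 in DMSO (SD, n = 4 each), a change of -12.1 points (adjusted p = 0.0055 by edgeR). The leading competitor was an annotated junction of 11242 nt at the same 3′ splice site that skips the upstream exon. Reads of competing junctions numbered 80 in LMI070 and 24 in DMSO, and the call was lost without LMI070 replicate 15 (adjusted p = 0.067), DMSO replicate 10 (0.083) or DMSO replicate 11 (0.76). The change of share in these fits was -11.9, -11.6 and -10.9 points.

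**Figure D4:**
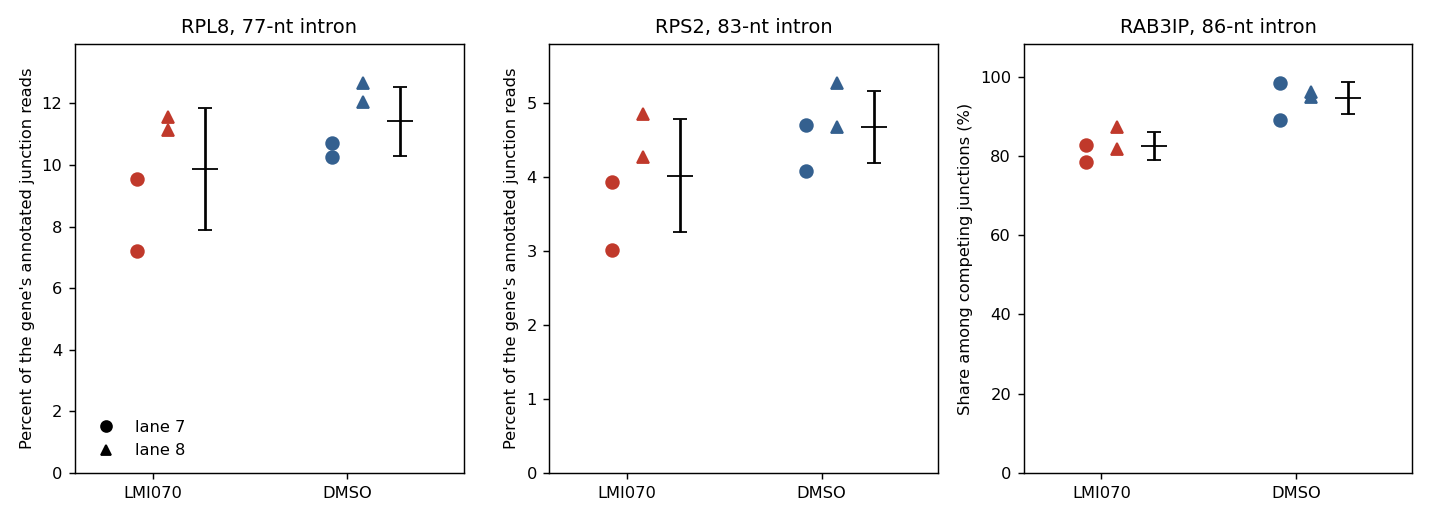
Values per library for the RPL8 and RPS2 introns (percent of the gene's annotated junction reads) and the RAB3IP intron (share among competing junctions, percent), in LMI070 (red) and DMSO (blue). Circles are lane 7, triangles lane 8, black bars mean ± SD (n = 4); LMI070 replicate 16 is the lowest point in each panel at 7.19%, 3.02% and 78.4%.

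Of the host genes, 7 were called for a change in spliced reads. The reads of their short introns relative to the rest of the gene differed by no more than 0.09 log2 between the groups. Reads summed over the annotated junctions of a gene were compared with edgeR's quasi-likelihood test with TMM scaling and lane in the model over 14250 genes, 2508 of which hold a short intron. Of these 2508, 1 was called higher and 6 lower, against 0.0211% higher and 0.105% lower over all genes. In these bulk libraries, fewer cells of a type and less RNA per cell cannot be told apart. The CPM of spliced reads given for single genes here and below include the TMM scaling. PDXDC1, a gene with a pyridoxal-dependent decarboxylase domain, had 155, 145, 144 and 147 CPM of spliced reads in LMI070 replicates 13 to 16, against 248, 244, 254 and 248 in DMSO replicates 9 to 12. The groups did not overlap, and the log2 change was -0.75 (SE 0.039, adjusted p = 9.1e-10 by edgeR). Its 78-nt intron, the twentieth of 22, had a log2 difference of 0.05 relative to the gene (SE 0.089), and edgeR made no call for it.

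XRN2, the gene of the nuclear exoribonuclease that takes part in transcription termination, holds 6 short introns and shows the same in a single gene. It had 346, 366, 360 and 352 CPM of spliced reads in LMI070 replicates 13 to 16, against 541, 542, 540 and 568 in DMSO replicates 9 to 12, a log2 change of -0.62 (SE 0.037, adjusted p = 4.3e-09 by edgeR). Relative to the rest of the gene, its introns of 83, 76, 85, 83, 87 and 83 nt, in 5′ to 3′ order, had log2 differences of 0.03, 0.01, -0.01, 0.06, -0.05 and 0.02, with standard errors of 0.06 to 0.07 and no call by edgeR. CIP2A, the gene of an inhibitor of protein phosphatase 2A, fell by 0.46 and its 86-nt intron differed by 0.09 relative to the gene (SE 0.079, no call). The endoplasmic reticulum gene LNPK fell by 0.34, the formin gene DIAPH3 by 0.25 and NAE1, for a subunit of the NEDD8-activating enzyme, by 0.24, and the log2 differences of their short introns were -0.05 to -0.01, with no call. CTPS1, the CTP synthase gene, rose by 0.25, with a log2 difference of 0.05 for its 79-nt intron, which was not called. These 7 genes passed the gene test with adjusted p of up to 0.026 by edgeR. CTPS1, DIAPH3 and NAE1 no longer passed without LMI070 replicate 16, with log2 changes of 0.23, -0.24 and -0.22, nor without LMI070 replicate 13, with 0.23, -0.24 and -0.20. CTPS1 was also lost without DMSO replicate 11, DIAPH3 without LMI070 replicates 14 or 15 or DMSO replicates 9 or 10, and NAE1 without LMI070 replicate 14 or DMSO replicates 10 or 11. The other 4 passed with any 1 library left out. PDXDC1, XRN2 and CIP2A are also on the list of LMI070 targets, which was drawn in part from these samples and is not independent evidence of their direction.

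**Figure D5:**
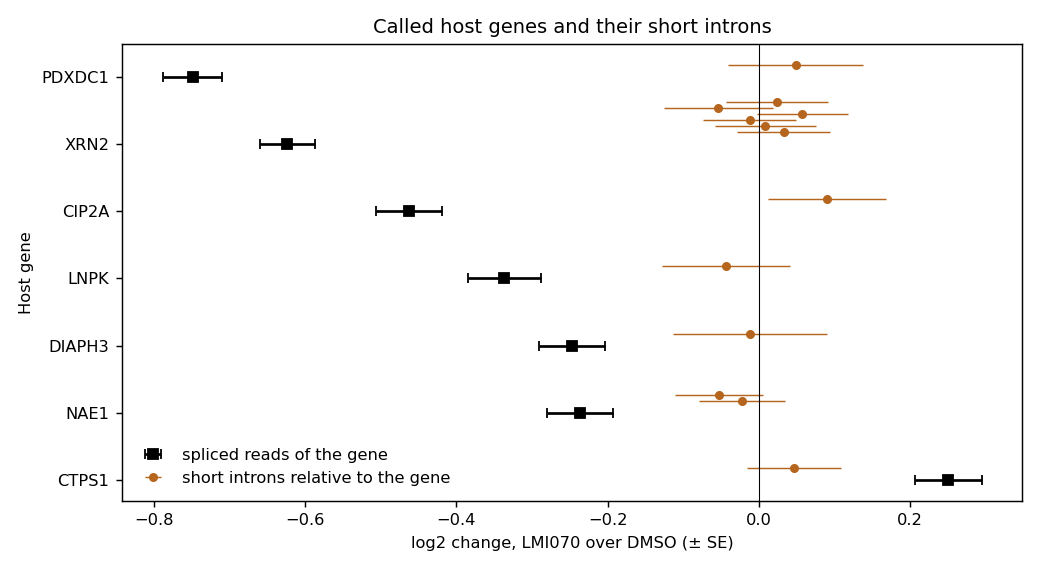
Log2 change (LMI070 over DMSO, ± SE, x axis) of the spliced reads of the 7 called host genes (black squares) and of their short introns relative to the rest of the gene (brown circles). Gene values run from -0.75 in PDXDC1 to 0.25 in CTPS1, while the intron values lie between -0.05 and 0.09.

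At an unadjusted p under 0.05, 366 of the 2508 host genes (14.6%) differed, 269 higher and 97 lower, and 1115 of the 11742 other genes (9.50%) did, 547 higher and 568 lower, against 10.4% over all genes. The split of the host genes was 481 higher and 167 lower in lane 7 (25.8%) and 99 higher and 99 lower in lane 8 (7.89%). Of the other genes, 1006 were higher and 823 lower in lane 7 (15.6%), and 348 and 384 in lane 8 (6.18%). Lane 7 alone called 198 host genes higher and 31 lower, and lane 8 alone 5 higher and 10 lower. Calls over all genes in each lane alone are not given here. The number of host genes at an unadjusted p under 0.05 was 205 without LMI070 replicate 16 (165 higher and 40 lower). It was 200 without LMI070 replicate 13 (148 and 52) and 217 without DMSO replicate 12 (141 and 76). Without both libraries that lie apart, which are in lane 7, it was 171 of 2509, with 108 higher and 63 lower.

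In the gene lists looked up, 1 short intron was called, that of RPL8. Of the 8 factors looked up for short intron recognition, 7 were tested as genes and 0 were called by edgeR, with 1 at an unadjusted p under 0.05. RBM17 had 178 ± 4.99 CPM of spliced reads in LMI070 and 176 ± 11.9 in DMSO (SD, n = 4 each), SAP30BP 97.4 ± 7.55 in LMI070 and 102 ± 3.60 in DMSO, and U2AF2 389 ± 4.31 in LMI070 and 390 ± 26.3 in DMSO. The branch-point binding protein gene SF1 was the 1 at an unadjusted p under 0.05, with 141 ± 23.7 in LMI070 and 122 ± 5.85 in DMSO (adjusted p = 0.38 by edgeR). EML3, ESRP2, HNRNPH1 and NDOR1, genes known from earlier work on very short introns, held 20 short introns with a median log2 change of 0.02 and 0 calls by edgeR, 2 of them at an unadjusted p under 0.05. NDOR1's 49-nt intron had 24 reads, 6.76% of those at its splice sites.

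Cytosolic ribosomal protein genes held 22 short introns in 19 of 84 genes, and 21 could be tested. RPL8 was the 1 called, and, against 4.90% of all short introns tested, 5 of these 21 had an unadjusted p under 0.05 by edgeR. Their median log2 change relative to the gene was 0.0035, and 11 of the 21 were positive. Their median relative reads within the principal transcript were -0.37 over 15 introns. Genes of the extracellular matrix and basement membrane held 59 short introns in 10 of 11 genes, with a median change of -0.03, and the large cytoskeletal genes 42 in 10 of 13, with -0.01. tRNA synthetase genes held 20 in 7 of 20, RNA polymerase subunit genes 10 in 7 of 16, proteasome genes 12 in 9 of 27, genes of hnRNP and SR proteins 9 in 8 of 22 and glycolysis genes 8 in 5 of 17. In these 7 lists edgeR called 0 short introns, with 4 at an unadjusted p under 0.05, and the list medians of the log2 change lay between -0.03 and 0.07, beside -0.0011 over all junctions tested. The LMI070 target list held 12 short introns in 5 of 19 genes. None was called by edgeR, and the 1 at an unadjusted p under 0.05 was the last intron of STRN3 (81 nt), with a log2 change of -0.25 (SE 0.098, adjusted p = 0.88 by edgeR).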

How the data were processed

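Splice junction tables were deposited for 8 libraries; the authors aligned the reads with STAR 2.6.0c to GRCh38, per the submitters' processing notes, and each deposited file gives counts of uniquely and of multiply mapped reads per junction. Other alignment settings are not given in the sources used here. Reads over unspliced introns are not in such tables, so retention was not analysed here. From these counts, junctions were matched to GENCODE 29 introns of the same build. Host gene, principal isoform (APPRIS tag), position, exon ends and, where a transcript holds the intron within an exon, its sequence came from that reference.

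Counts were tested with edgeR 4.0.16 (R 4.3.3) over whole tables: each annotated junction of a single gene with at least 20 reads against the other annotated junctions of its gene (at least 10 reads in each library), each junction against those sharing a splice site (at least 10 reads together in each library), and spliced reads per gene after TMM scaling. Lane was in each model, p-values were adjusted by Benjamini-Hochberg over the whole table, and standard errors came from the F statistic. DESeq2 1.42.0 was an alternative. The fits were tested on simulated data. Depth was 20369466 to 36131054 unique junction reads per library.

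The introns named were the 8 deepest, the 5 shortest with at least 100 reads, the 6 lowest and highest in relative reads, the 6 lowest in share, the 3 deepest GC-AG introns, those called or with the smallest p, and those of listed genes. Other names were chosen after their values were seen. The introns, rules and gene lists were chosen with earlier results of these data known. One gene that the rule names is not reported here.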

Additional observations from a re-analysis of the deposited data

Results flagged for a closer look

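Of 26 groups of 4 libraries checked for a library far from the other 3 (overall shares and medians of the short introns, the RPL8, RPS2 and RAB3IP introns and the called host genes), 2 had one, and chance gives about 1 in 20. LNPK had 63.3 CPM of spliced reads in LMI070 replicate 15, below the 65.4 to 65.5 of the other 3 LMI070 libraries. XRN2 had 568 in DMSO replicate 12, above the 540 to 542 of the other 3 DMSO libraries. No short intron had a difference between lanes in its response to LMI070 that passed the edgeR interaction test, where 173 of 4122 had an unadjusted p under 0.05.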

How the results depend on the processing

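The changes of the RPL8, RPS2 and RAB3IP introns and of the 7 called host genes kept their direction under each alternative tried here. Relative to the host gene, the count of short introns called was 1 as reported, 1 with multiply mapped reads added and 1 against host junctions that share no splice site. It was 0 with DESeq2, without the lane term, in lane 7 alone, in lane 8 alone and with DMSO replicate 12 and LMI070 replicate 16 both left out, an alternative chosen after seeing the data. Without the low-count filter it was 3, with log2 changes of -0.24 for RPL8, -0.20 for RPS2 and only 0.02 for an intron of HNRNPK, and leaving out 1 library it ranged from 0 to 2. Among competing junctions the count was 1 as reported and also with no minimum change. It was 0 with DESeq2, in lane 7 alone, in lane 8 alone and without the low-count filter, and 0 to 1 leaving out 1 library. Host genes called numbered 7 as reported, 4 without the lane term, 229 in lane 7 alone, 15 in lane 8 alone, 95 without the low-count filter, 4 to 7 leaving out 1 library and 4 without both libraries that lie apart. The split of these calls was 1 higher and 6 lower as reported, 198 and 31 in lane 7, 5 and 10 in lane 8 and 85 and 10 without the filter. Calls over all genes under the alternatives are not given here. RPS16, HNRNPH3 and FBL were called in opposite directions, with log2 changes of 1.03, 0.84 and 0.29 in lane 7 and -0.17, -0.19 and -0.18 in lane 8. The 7 were among those called in lane 7, in lane 8 and without the filter. PDXDC1, XRN2, CIP2A and LNPK passed in each of 16 alternatives. The median relative reads, averaged over libraries, were 0.08 as reported, 0.15 with at least 100 reads per intron and 0.0482 within the principal transcript, also chosen after seeing the data. The share of reads in short introns (4.09 to 4.15%) and their median share among competing junctions (99.6 to 99.7%) moved by less than the spread between libraries. The cause was not tested for these changes. No paired analysis was possible because the replicate numbers of the groups, 13 to 16 and 9 to 12, share none. Depth limits what can be seen in introns with few reads, where standard errors were largest.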
